A study of Mus musculus with 28 samples.

Results

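Levels of 5 mature microRNAs (miRNAs) of the inflammatory response in mouse blood were analysed: mmu-miR-146a-5p, mmu-miR-146b-5p, both arms of miR-21a (mmu-miR-21a-5p and mmu-miR-21a-3p) and mmu-miR-155-5p, written here without the species prefix. They were taken by name, because inflammation and the transcription factor NF-kB are known to induce them, and they are 5 of the 1966 miRNAs, and of the 80668 small RNAs of all classes, in the deposited tables. The data are small RNA sequencing libraries of 14 female wildtype C57BL/6N mice, an inbred laboratory strain, with no treatment. Their ages were 2 months (3 mice), 6 months (4 mice), 8 months (3 mice), 12 months (2 mice) and 18 months (2 mice). Each mouse gave 1 library of a pellet enriched in extracellular vesicles (EVs), obtained by ultracentrifugation of platelet-depleted plasma, and 1 library of the remaining EV-depleted plasma, called plasma here, which makes 28 libraries. A pellet made by ultracentrifugation can also hold protein complexes and lipoproteins, so EV stands here for the pellet and not for purified vesicles.

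miRNAs are short RNAs that lower the output of messenger RNAs, which they find mainly through the seed, bases 2 to 8 of the mature strand. In immune cells, NF-kB signalling from Toll-like and cytokine receptors induces the miR-146 family, whose products repress the signalling adaptors Traf6 and Irak1 and so close a negative feedback loop. miR-155 is induced in activated macrophages and lymphocytes and represses Socs1 and Ship1, miR-21 is abundant in most cells and represses Pdcd4, and miR-146a and miR-21 are both widely measured in blood in studies of inflammation and aging.

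The mature sequences are shown because the seed decides which members can share targets and because close relatives compete for the same reads. All sequences are from RefSeq (GRCm38.p6), in which 1675 of the 1966 miRNAs of the table were matched, and are written 5′ to 3′ with the seed in capitals.
miR-146a-5p: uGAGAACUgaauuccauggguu
miR-146b-5p: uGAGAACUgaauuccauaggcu
miR-21a-5p: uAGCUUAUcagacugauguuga
miR-21c: uAGCUUAUcagacugguacaa
miR-21a-3p: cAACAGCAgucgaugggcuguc
miR-155-5p: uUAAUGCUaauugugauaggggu

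miR-146a-5p and miR-146b-5p carry the same seed, GAGAACU, and share their first 17 bases, with the 2 substitutions G18A and U21C (position from the 5′ end, miR-146a-5p first). They are nevertheless products of separate loci, miR-146a-5p of chr11:43374435-43374456 (minus strand) and miR-146b-5p of chr19:46342790-46342811 (plus strand). In the GENCODE M21 annotation the hairpin of miR-146a overlaps no gene but its own (Mir146), whereas that of miR-146b lies inside Mfsd13a, outside its exons. miR-21a-5p (chr11:86584120-86584141, minus strand) and miR-21a-3p (chr11:86584082-86584103, minus strand) come from a hairpin inside an exon of Vmp1, a gene of autophagy, on the same strand. miR-21c, which is not one of the 5 members, shares its first 15 bases and its seed with miR-21a-5p. miR-155-5p (chr16:84714143-84714165, plus strand) lies in an exon of its host gene Mir155hg, and no other miRNA of the matched table has its seed. How reads with several matching miRNAs were counted is not stated in the sources used here, so values of miR-146a-5p against miR-146b-5p and of miR-21a-5p against miR-21c depend on how such reads were assigned.

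Plasma libraries held 928651 to 23905651 counts, of which 4980 to 82650 were of miRNAs, and EV libraries held 4764338 to 52753818, of which 20067 to 203629 were of miRNAs. The deposited RPM, reads per 1000000, divide each count by 1 number per library, and 1 read was worth 0.114 to 1.70 RPM in plasma and 0.0722 to 0.217 RPM in EVs. The plasma library of 6-month replicate 1 was the only one with fewer than 2000000 counts. The plasma labels of 2-month replicates 2 and 3 carry a joint code, so their match to EV libraries rests on the replicate number. Nothing in the labels gives a batch or date of sequencing.

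The members fell into 3 abundant and 2 scarce miRNAs. A read spans the whole mature miRNA, of 22 or 23 bases, so RPM were compared between miRNAs without a further correction for length. The study names biases of adapter ligation and PCR as known issues of small RNA libraries. They were not corrected here, so ranks and ratios between miRNAs are of reads. miR-21a-5p was by mean RPM the 4th most abundant of all miRNAs in plasma, with 342 ± 151 RPM (SD, n = 14), and the 3rd in EVs, with 388 ± 266 RPM (SD, n = 14). It took 5.43% ± 1.39 of the miRNA counts of a plasma library and 4.93% ± 1.55 of those of an EV library (SD, n = 14). miR-146a-5p ranked 47th in plasma, with 22.7 ± 13.9 RPM, and 43rd in EVs, with 31.5 ± 27.2 RPM. miR-146b-5p ranked 110th in plasma, with 4.65 ± 2.34 RPM, and 107th in EVs, with 6.27 ± 4.67 RPM. The order of these 3 was the same in each of the 28 libraries. The lowest ratio of miR-21a-5p to miR-146a-5p counts in any library was 9.60, and the lowest ratio of miR-146a-5p to miR-146b-5p counts was 2.22.

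miR-155-5p and miR-21a-3p were near the limit of detection. miR-155-5p, the activation marker of macrophages and lymphocytes, had 35 counts over the 14 plasma libraries, at most 6 in one library, and 79 counts over the 14 EV libraries, at most 13. Pooled over libraries this was 0.411 RPM in plasma (exact Poisson 95% interval 0.286 to 0.572) and 0.663 RPM in EVs (0.525 to 0.826), intervals that cover counting error only, since the reads carry no molecular identifiers. miR-21a-3p, the arm that is mostly degraded after processing of the hairpin, had 12 counts in plasma in 8 libraries and 13 counts in EVs in 9 libraries. Its pooled level was 0.141 RPM in plasma (0.0728 to 0.246) and 0.109 RPM in EVs (0.0581 to 0.186), below the interval of miR-155-5p in both fractions. The 3p arm thus made up 0.0391% of the counts of both miR-21a arms in a mean plasma library and 0.0317% in a mean EV library. Neither miRNA reached the level needed for the tests, at least 1 RPM in at least 2 of the 14 libraries of a fraction. miR-155-5p reached 1 RPM in 0 plasma libraries and in 1 EV library, 12-month replicate 1. Thus 3 of the 5 members were tested, among 304 miRNAs in plasma and 307 in EVs.

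The first question was how the members vary with age, and miR-146a-5p had the steepest slope of the 3 in both fractions. In EVs miR-146a-5p was at 13.0, 11.5 and 30.1 RPM in the 2-month mice, 13.1, 11.1, 20.8 and 49.8 RPM in 6-month mice, 8.28, 18.2 and 8.44 RPM in 8-month mice, 47.1 and 61.4 RPM in 12-month mice, and 44.3 and 103 RPM in 18-month mice. Both 12-month and both 18-month libraries were above every library of 2 and of 8 months. Against 2 months alone, 52.8% of the 307 miRNAs tested in EVs lay so at 12 months and 22.5% at 18 months. The share of miRNAs that lay above the 8-month libraries was not counted. The miR-146a-5p value of 6-month replicate 4 overlapped those of the older ages. Plasma held it at 18.0, 10.5 and 18.5 RPM in 2-month mice, 25.5, 14.7, 15.7 and 39.5 RPM in 6-month mice, 9.43, 17.1 and 4.29 RPM in 8-month mice, 22.6 and 33.2 RPM in 12-month mice, and 32.7 and 56.8 RPM in 18-month mice. Both older ages again lay above all mice of 2 and 8 months, while 6-month mice overlapped both. Against 2 months alone, 13.8% of the 304 miRNAs tested in plasma lay so at 12 months and 24% at 18 months. The highest value in each fraction came from 18-month replicate 2, and the second highest plasma value from 6-month replicate 4.

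miR-146b-5p was separated in the same way in EVs, but not in plasma, and with more counting error. In EVs it was at 3.58, 1.95 and 5.41 RPM in 2-month mice, 2.93, 2.60, 6.51 and 9.15 RPM in 6-month mice, 2.57, 3.43 and 2.02 RPM in 8-month mice, 10.9 and 10.9 RPM in 12-month mice, and 7.79 and 18.0 RPM in 18-month mice. The 12-month and 18-month libraries stood above all of 2 and 8 months, again with no share of all miRNAs counted for 8 months. Plasma libraries had 4.16, 2.84 and 3.41 RPM in 2-month mice, 5.11, 4.60, 5.19 and 7.68 RPM in 6-month mice, 4.24, 2.91 and 1.64 RPM in 8-month mice, 2.66 and 6.27 RPM in 12-month mice, and 3.69 and 10.7 RPM in 18-month mice. Here young and old mice overlapped, and the fewest counts behind a plasma value were 3.

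miR-21a-5p had the smallest relative spread between mice of the 3. In EVs it was at 249, 203 and 384 RPM in 2-month mice, 229, 157, 231 and 575 RPM in 6-month mice, 184, 202 and 135 RPM in 8-month mice, 721 and 716 RPM in 12-month mice, and 451 and 990 RPM in 18-month mice. As for the miR-146 pair, all 4 libraries of the older ages were above all 6 of 2 and 8 months, with no share of all miRNAs counted for 8 months. The plasma level was 365, 190 and 211 RPM in 2-month mice, 567, 270, 285 and 416 RPM in 6-month mice, 242, 259 and 131 RPM in 8-month mice, 244 and 470 RPM in 12-month mice, and 536 and 597 RPM in 18-month mice. The 18-month plasma libraries were above those of 2 and 8 months, whereas those of 12 months overlapped them.

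**Figure D1:**
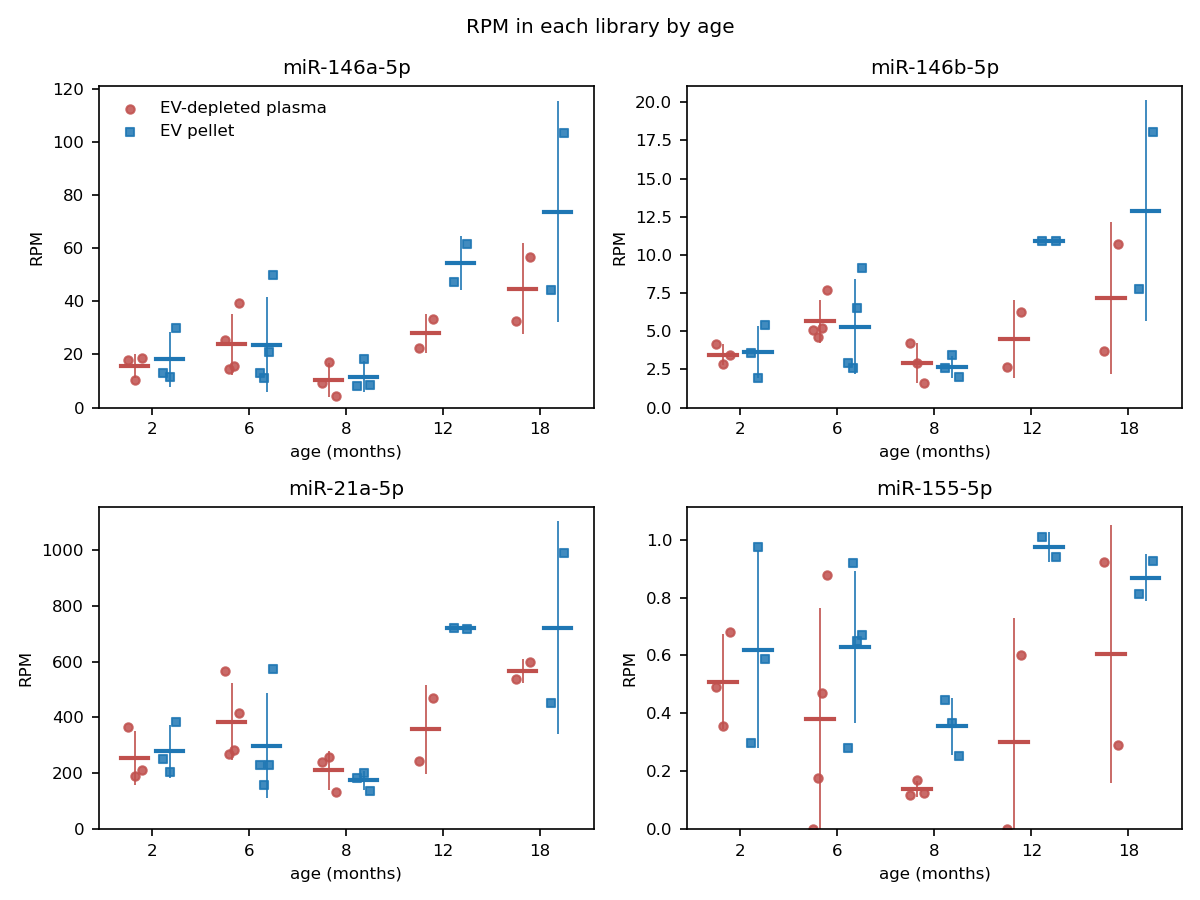
RPM of miR-146a-5p, miR-146b-5p, miR-21a-5p and miR-155-5p (vertical axes, linear from 0) by age in months, with 1 point per library (circles plasma, squares EVs), a bar at the mean and a line of 1 SD, which is cut at 0 for miR-155-5p. In EVs the 12-month and 18-month libraries of the first 3 miRNAs lie above all libraries of 2 and 8 months, and 18-month replicate 2 is the highest, at 103 RPM of miR-146a-5p and 990 RPM of miR-21a-5p. How many other miRNAs are set apart from 8 months in this way was not counted.

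The RPM of many miRNAs differed in the same way. In EVs, every 12-month library was above every 2-month library for all 3 tested members, and for 52.8% of the 307 miRNAs tested, and every 18-month library was so for the 3 members and for 22.5%. In plasma, 12-month libraries were above 2-month libraries for miR-146a-5p and for 13.8% of the 304 miRNAs tested, and 18-month libraries for miR-146a-5p, miR-21a-5p and 24% of them. The share of all miRNAs whose older libraries lay above every 8-month library was not counted, so that separation of the members has no background here. The summed RPM of all miRNAs in EVs was 8138 ± 2652 (SD, n = 3) at 2 months, 4447 ± 160 (SD, n = 3) at 8 months, the lowest mean of the ages, 12998 ± 2410 (SD, n = 2) at 12 months and 9851 ± 2347 (SD, n = 2) at 18 months. Since the summed level differed between ages, libraries were scaled to one another over miRNAs (TMM) for the count tests. In cell-free blood, release from fewer cells and less RNA per cell cannot be told apart.

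On the TMM scale, in normalised counts per 1000000 miRNA counts (CPM), miR-21a-5p of the older mice remained above that of the 2-month mice. miR-21a-5p in EVs was at 40050, 37403 and 40790 CPM in 2-month mice, at 57126 and 51037 CPM in 12-month mice and at 49569 and 97581 CPM in 18-month mice. The plasma values were 42528, 38830 and 37826 CPM in 2-month mice, 46671 and 56234 CPM in 12-month mice and 71810 and 86744 CPM in 18-month mice. Already the 6-month libraries, from 42632 CPM in EVs and from 49460 CPM in plasma, were above all 2-month libraries, which held for 2.93% of the miRNAs tested in EVs and 3.62% in plasma. The 8-month libraries of miR-21a-5p overlapped the 2-month ones in both fractions, so the levels did not follow age step by step.

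miR-146a-5p in EVs was at 2095, 2126 and 3193 CPM in 2-month mice, 3738 and 4380 CPM in 12-month mice, and 4871 and 10169 CPM in 18-month mice. The plasma values were 2096, 2143 and 3327 CPM in 2-month mice, 4312 and 3972 CPM in 12-month mice, and 4382 and 8251 CPM in 18-month mice. In both fractions the 12-month and 18-month mice lay above the 2-month mice. The same separation held for miR-146b-5p in EVs, at 359 to 576 CPM in 2-month mice, 777 to 868 CPM in 12-month mice and 856 to 1776 CPM in 18-month mice, but not in plasma. Mice of 6 months overlapped the older ones. 6-month replicate 4 had 5100 CPM of miR-146a-5p in EVs and 4701 CPM in plasma, above both 12-month libraries and 18-month replicate 1. The 6-month EV libraries had 643 to 1204 CPM of miR-146b-5p. On this scale 12-month libraries were above 2-month libraries for 13% of miRNAs in EVs and 16.8% in plasma, and 18-month libraries for 10.4% and 19.7%.

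**Figure D2:**
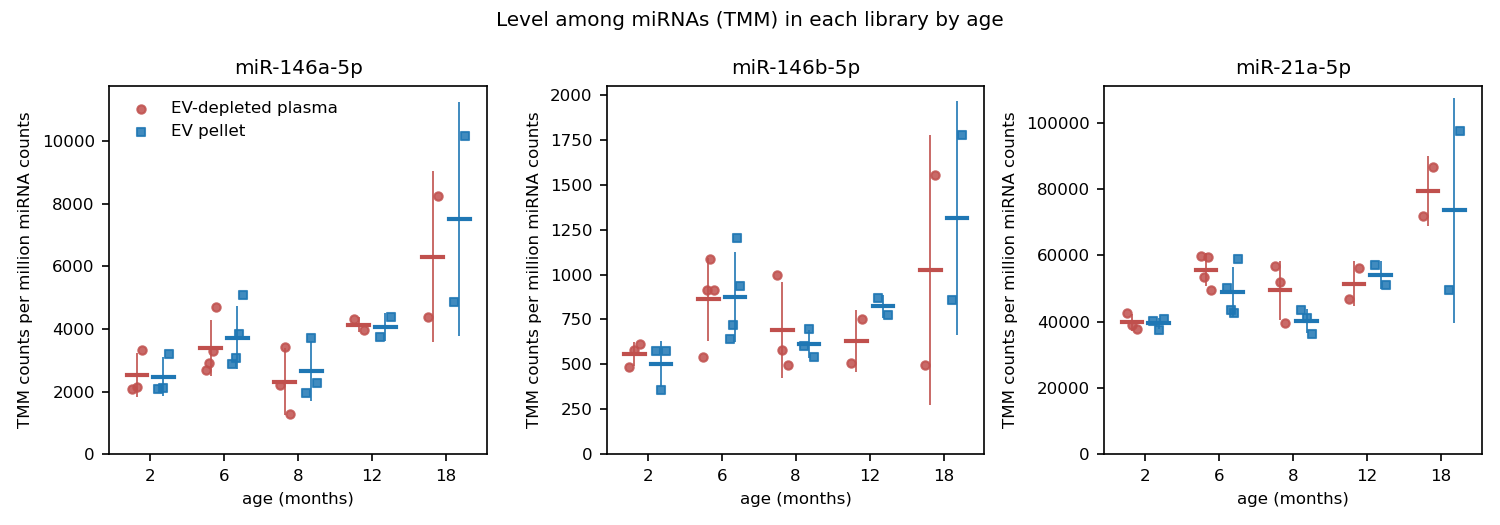
Levels of miR-146a-5p, miR-146b-5p and miR-21a-5p in TMM counts per 1000000 miRNA counts (vertical axes, linear from 0) by age in months, with 1 point per library (circles plasma, squares EVs), a bar at the mean and a line of 1 SD. The 12-month values of miR-146a-5p, 3738 to 4380 in both fractions together, lie above the 2-month values, which reach 3327, and the 2 mice of 18 months differ from each other more than those of 12 months.

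No member passed the age-trend test after adjustment over all miRNAs, by the quasi-likelihood test of edgeR and Benjamini-Hochberg adjustment. In EVs the slope of miR-146a-5p was 0.099 ± 0.024 log2 units per month (standard error, n = 14; p = 0.000539, adjusted p = 0.0551), a 2.99-fold change fitted from 2 to 18 months. Its p was the 3rd smallest of the 307 miRNAs. The slope of miR-146b-5p was 0.080 ± 0.024 (adjusted p = 0.140), or 2.42-fold, and that of miR-21a-5p was 0.061 ± 0.019 (adjusted p = 0.140), or 1.96-fold. With an unadjusted p under 0.05 all 3 had positive slopes in EVs, as did 7.17% of the 307 miRNAs. With an adjusted p under 0.05 edgeR called 0 of the 3 and 0.326% of all miRNAs, and DESeq2 called miR-146a-5p (slope 0.093, adjusted p = 0.0328) and 1.63% of all miRNAs.

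In plasma the fitted slopes of all 3 members were smaller than in EVs, a difference that did not pass its own test, the interaction of age and fraction. For miR-146a-5p edgeR gave a slope of 0.077 ± 0.025 log2 units per month (standard error, n = 14; p = 0.00548, adjusted p = 0.175), a fitted 2.35-fold change from 2 to 18 months. miR-21a-5p had a slope of 0.049 ± 0.016 (adjusted p = 0.175), or 1.73-fold, and miR-146b-5p of 0.038 ± 0.029 (adjusted p = 0.548), or 1.52-fold. With an unadjusted p under 0.05, 2 members had positive slopes, as did 8.88% of the 304 miRNAs tested. With adjustment 0 of the 3 and 0% of all miRNAs were called by edgeR, and DESeq2 called 0.658% of all miRNAs and none of the 3. The median slope over all miRNAs was -0.0020 in plasma and 0.0014 in EVs.

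When each of the 14 mice was left out in turn, the slopes moved most without 18-month replicate 2. Without it, the slope of miR-146a-5p was 0.063 in EVs (adjusted p = 0.443) and 0.043 in plasma (adjusted p = 0.589). That of miR-21a-5p was then 0.032 in EVs and 0.035 in plasma, and that of miR-146b-5p was 0.048 in EVs and turned to -0.019 in plasma. Leaving out 6-month replicate 4, the 6-month mouse with the highest miR-146a-5p, moved the test the other way: miR-146a-5p (adjusted p = 0.0066) and miR-21a-5p (adjusted p = 0.0301) then passed in EVs by edgeR, and without 12-month replicate 1 miR-146a-5p did (adjusted p = 0.0490). Of all 307 miRNAs, edgeR called 8 with a positive and 2 with a negative slope without 6-month replicate 4. Without 12-month replicate 1 it called 1 and 3, and with all mice 0 and 1. With libraries scaled as in the deposited RPM, the EV slopes were 0.138 for miR-146a-5p, 0.124 for miR-146b-5p and 0.105 for miR-21a-5p, against a median of 0.052 over all miRNAs on that scale.

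**Figure D3:**
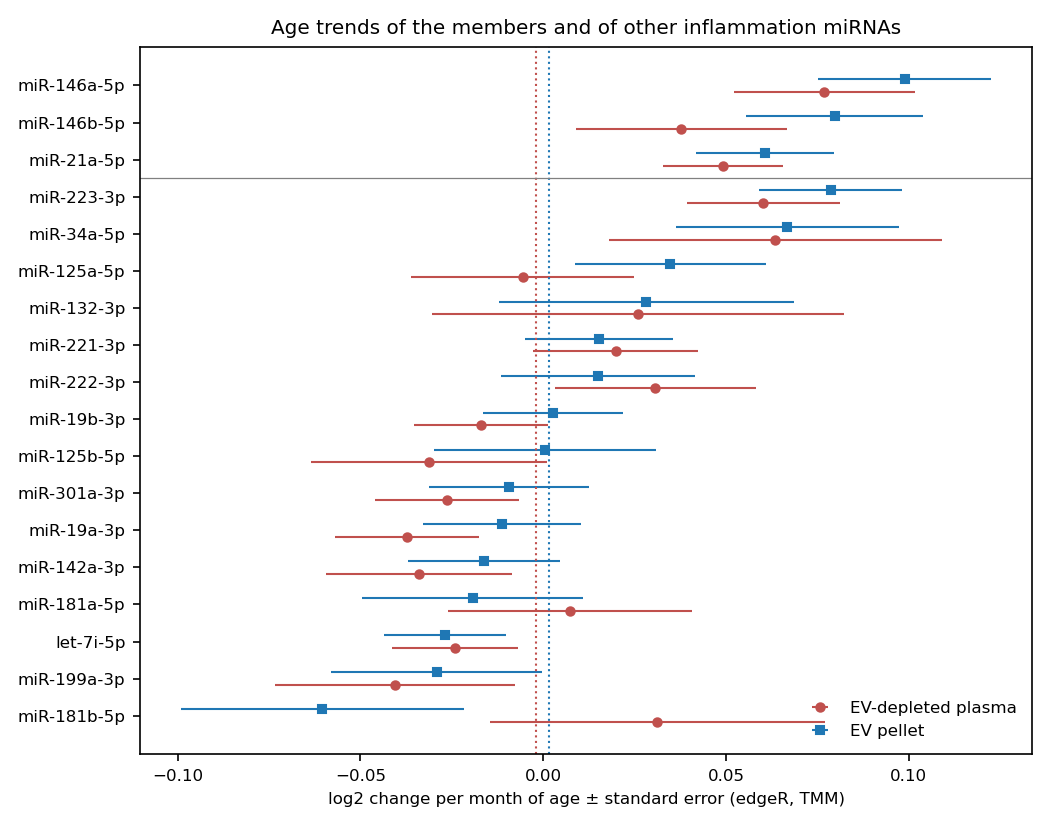
Slope with age (horizontal axis, log2 change per month ± standard error, edgeR with TMM over 14 libraries a fraction) of miR-146a-5p, miR-146b-5p and miR-21a-5p above the line and of 15 other inflammation miRNAs below it, with circles for plasma, squares for EVs and dotted lines at the median of all miRNAs tested in each fraction. The slopes of the 3 members are positive in both fractions, from 0.038 to 0.099, while those of the other miRNAs lie on both sides of 0.

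Correlations of deposited RPM with age depended on the measure. Spearman's rho, for which the study took values beyond 0.5 as a correlation, was over 0.5 for 1 of the 3 members in EVs, miR-146b-5p (rho = 0.515, permutation p = 0.0616), against 10.7% of the 307 miRNAs. It was 0.441 for miR-146a-5p (permutation p = 0.116) and 0.373 for miR-21a-5p (permutation p = 0.189) in EVs, with an adjusted p of 0.537 for each of the 3. In plasma rho was 0.380 for miR-146a-5p (permutation p = 0.179), 0.375 for miR-21a-5p (permutation p = 0.186) and 0.121 for miR-146b-5p (permutation p = 0.678), none over 0.5, against 2.96% of the 304 miRNAs, and the lowest adjusted p of the 3 was 0.795.

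Pearson's r with age, which weighs the high 18-month values more, was 0.718 for miR-146a-5p (permutation p = 0.00454), 0.709 for miR-146b-5p (permutation p = 0.00506) and 0.664 for miR-21a-5p (permutation p = 0.0111) in EVs, each with an adjusted p of 0.221, and 20.2% of the 307 miRNAs had an r over 0.5. In plasma r was 0.634 for miR-146a-5p (permutation p = 0.0157, adjusted p = 0.429), 0.569 for miR-21a-5p (permutation p = 0.0344, adjusted p = 0.437) and 0.394 for miR-146b-5p (permutation p = 0.162, adjusted p = 0.657), and 10.5% of the 304 miRNAs had an r over 0.5. Without the 18-month mice, the 2 farthest from the median age, r in EVs was 0.514, 0.563 and 0.532 for miR-146a-5p, miR-146b-5p and miR-21a-5p (permutation p = 0.0866, 0.0576 and 0.0745, adjusted p = 0.386 for each). In plasma it was then 0.249, 0.065 and 0.139. Spearman's rho without these mice was 0.188, 0.308 and 0.080 in EVs, and 0.076, -0.051 and 0.054 in plasma. Thus the relation rested on those mice in plasma by both measures, and in EVs by rho, while r in EVs fell but stayed over 0.5.

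The levels of markers of cells that can release RNA into blood stand beside these values. In EVs the summed RPM of 4 markers of myeloid cells and platelets (both arms of miR-223 and miR-142a) was 194 to 286 at 2 months, 524 to 574 at 12 months and 311 to 416 at 18 months. That of 2 endothelial markers (both arms of miR-126a) was 131 to 486, 697 to 713 and 360 to 411, and that of 3 liver markers (miR-122-5p, miR-192-5p and miR-194-5p) was 40.1 to 83.9, 128 to 140 and 126 to 179. The 2 lymphocyte markers (miR-150-5p and miR-342-3p) were at 44.7 to 91.9, 105 to 223 and 88.5 to 88.9, the 3 of striated muscle at 0.996 to 4.35, 4.55 to 8.08 and 6.57 to 7.62, and the 5 of red cells at 1548 to 3555, 2111 to 4268 and 772 to 2314. At 6 months the highest EV sums were 928 for endothelium and 243 for liver, above every library of 12 and 18 months. They were 7.59 for striated muscle, 254 for myeloid cells and platelets, 105 for lymphocytes and 1153 for red cells. In plasma the sums overlapped between 2 and 12 months for all 6 lists, and at 18 months those of endothelium (254 to 375) and of striated muscle (4.84 to 5.79) were above the 2-month ranges of 84.4 to 239 and 1.42 to 2.39. The 6-month plasma sums reached 627 for endothelium and 8.01 for striated muscle, above those of 18 months. These sums are in RPM, and the summed RPM of all miRNAs in EVs was also higher at 12 than at 2 months. On the TMM scale, EV slopes with age were above 0 for 3 of 4 myeloid and platelet markers and 2 of 2 of lymphocytes. It was 2 of 2 for endothelium, 3 of 3 for liver, 2 of 2 for muscle and 0 of 5 for red cells. In plasma it was 1 of 3 for myeloid cells and platelets, 1 of 2 for lymphocytes and 0 of 5 for red cells. All tested plasma markers of endothelium, liver and muscle had slopes above 0. No marker was at 0 over a whole fraction, and edgeR called none of those tested with age in plasma or in EVs. The part of these cells in the levels of the members was not tested.

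The second question was in which fraction the members are found. By mouse, miR-146a-5p was higher in EVs than in plasma in 10 of 14 mice, with ratios of RPM from 0.514 to 2.09 and a median of 1.29. miR-146b-5p was higher in EVs in 9 of 14 mice (0.565 to 4.12, median 1.21), and miR-21a-5p in 7 of 14 (0.404 to 2.95, median 0.938). The pairs of 2-month replicates 2 and 3 rest on the replicate number alone, so these counts and ratios could differ. With the other match, 11.5 RPM of miR-146a-5p in EVs would stand against 18.5 RPM in plasma. Among the 278 miRNAs tested in both fractions, 33.5% were higher in EVs in at least 10 mice, 48.2% in at least 9 and 72.3% in at least 7. In all 4 mice of 12 and 18 months miR-146a-5p (ratios 1.35 to 2.09) and miR-146b-5p (1.68 to 4.12) were higher in EVs, as were 43.2% of miRNAs. miR-21a-5p was higher in EVs in 3 of these 4 mice and lower in 18-month replicate 1, at 0.841.

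**Figure D4:**
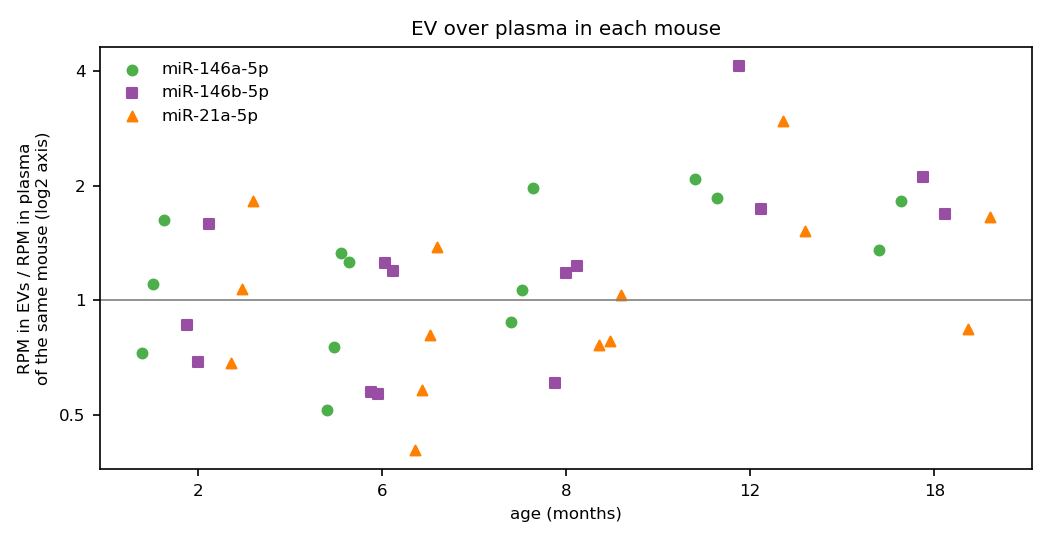
RPM in EVs divided by RPM in plasma of the same mouse (vertical axis, log2 scale) by age in months for miR-146a-5p (circles), miR-146b-5p (squares) and miR-21a-5p (triangles), with 1 point per mouse and a line at equal RPM. At 2, 6 and 8 months points lie on both sides of the line for each miRNA, and at 12 and 18 months all points of the miR-146 pair lie above it.

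In the count model of the 28 libraries with fraction and age, the fractions did not differ beyond error for any of the 3 members by edgeR's quasi-likelihood test. The difference, EVs over plasma, was 0.10 ± 0.18 log2 units for miR-146a-5p (adjusted p = 0.747), 0.02 ± 0.19 for miR-146b-5p (adjusted p = 0.968) and -0.13 ± 0.12 for miR-21a-5p (adjusted p = 0.490). The test called 0 of the 3 members and 18.3% of the 333 miRNAs that passed the filter in at least 1 fraction. With libraries scaled as in the deposited RPM these differences were 0.36, 0.31 and 0.11, against a median over all miRNAs of 0.28, which is 0.02 with TMM. The sign for miR-21a-5p thus followed the scaling, and relative to the median it was negative on both. The interaction of age and fraction was 0.012 ± 0.034 log2 units per month for miR-146a-5p, 0.032 ± 0.037 for miR-146b-5p and 0.00095 ± 0.023 for miR-21a-5p (adjusted p = 0.996 for each). It was called for 0 of the 3 members and 0% of the 333 miRNAs by edgeR and by DESeq2, with 3.3% at an unadjusted p under 0.05 by edgeR, so the steeper slopes in EVs were not distinguishable from those in plasma.

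The scarce members gave no count test at the filter used. EVs held more RPM of miR-155-5p than plasma did in 10 of 14 mice, but its plasma libraries had only 0 to 6 counts each. At least 10 mice showed this direction for 33.5% of the 278 miRNAs tested in both fractions, which do not include miR-155-5p. The intervals of its pooled levels were 0.286 to 0.572 RPM in plasma and 0.525 to 0.826 RPM in EVs. They overlapped, which is not a test of the difference, and they cover counting error only. In EVs miR-155-5p was at 0.299, 0.974 and 0.588 RPM in 2-month mice, 0.279, 0.918, 0.651 and 0.670 RPM in 6-month mice, 0.447, 0.367 and 0.252 RPM in 8-month mice, 1.01 and 0.939 RPM in 12-month mice, and 0.812 and 0.927 RPM in 18-month mice. The plasma range was 0 to 0.921 RPM, with the highest value in 18-month replicate 1 and 0 counts in 6-month replicate 1 and 12-month replicate 1. With no filter, edgeR gave 0.58 log2 units for EVs over plasma of miR-155-5p (adjusted p = 0.468) and -0.49 for miR-21a-3p (adjusted p = 0.638). Differences of miR-21a-3p between mice, which had at most 3 counts in a library, were not detectable at this depth.

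Ratios of counts within a library do not depend on how libraries are scaled. The ratio of miR-146a-5p to miR-146b-5p was 4.76 ± 0.971 in EVs (SD, n = 14) and 4.89 ± 1.98 in plasma (SD, n = 14). In EVs it was 3.64 to 5.92 at 2 months and 5.69 to 5.73 at 18 months, so the 18-month libraries lay within the range of young mice. In plasma it was 3.69 to 5.43 at 2 months, 5.29 to 8.50 at 12 months and 5.30 to 8.88 at 18 months. The 8.50 and the 8.88 rest on 4 and 16 counts of miR-146b-5p.

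The ratio of miR-21a-5p to miR-146a-5p was 14.3 ± 3.81 in EVs (SD, n = 14) and 17.3 ± 5.98 in plasma (SD, n = 14). In EVs both 18-month libraries, at 9.60 and 10.2, were below all 12 other EV libraries, of which the lowest was at 11.1, so miR-146a-5p stood higher relative to miR-21a-5p in these EV libraries than in any EV library of a younger mouse. How many other miRNAs were set apart from miR-21a-5p in this way was not counted. In plasma the 18-month ratios were 16.4 and 10.513, the latter just below the lowest younger library, at 10.522, in a range of younger mice that reached 30.6. miR-21c, with the seed of miR-21a-5p, had 1.10% ± 0.351 of the counts of miR-21a-5p in plasma and 1.07% ± 0.276 in EVs (SD, n = 14), and the highest share in any library was 1.79%.

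**Figure D5:**
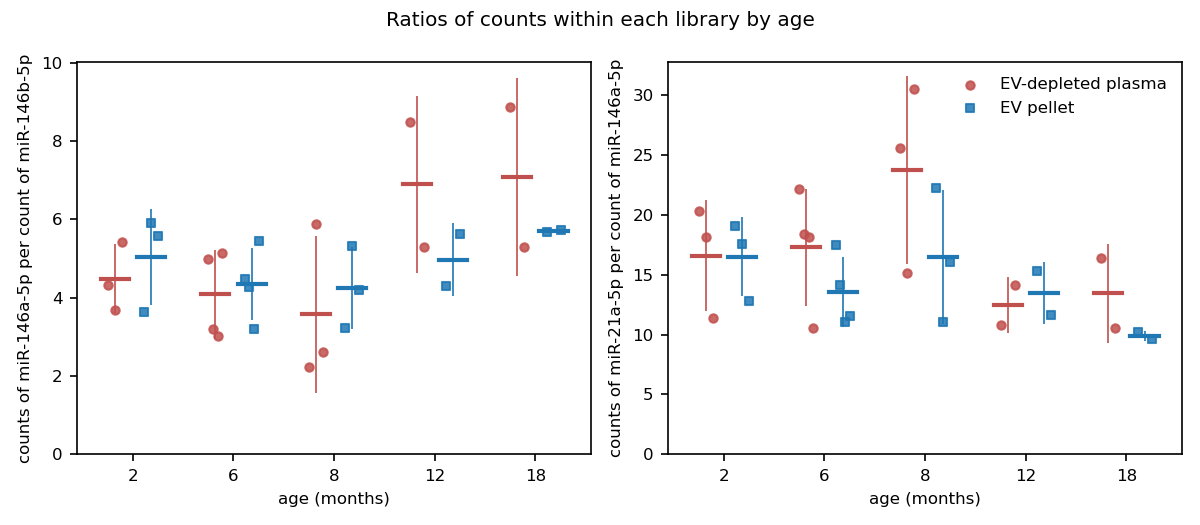
Counts of miR-146a-5p per count of miR-146b-5p (left) and of miR-21a-5p per count of miR-146a-5p (right) within each library (vertical axes, linear from 0) by age in months, with circles for plasma, squares for EVs, a bar at the mean and a line of 1 SD. On the right the 2 EV libraries of 18 months, at 9.60 and 10.2, lie below all other EV libraries.

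The members were among each other's nearest patterns. Likeness was measured by Pearson's r of log2 TMM CPM over the 28 libraries after subtraction of the mean of each fraction, among 148 miRNAs with at least 20 counts a library on average. The points share mice and library scaling, so r is a description. For miR-146a-5p the closest were miR-342-3p (r = 0.806), miR-21a-5p (0.770) and miR-29c-3p (0.761), with miR-146b-5p in 5th place (0.696). For miR-146b-5p they were miR-21a-5p (0.700), miR-146a-5p (0.696) and miR-223-3p (0.653). For miR-21a-5p they were miR-223-3p (0.790), miR-146a-5p (0.770) and miR-29b-3p (0.769), with miR-146b-5p in 4th place (0.700). The median r with all 148 was between -0.086 and -0.019 for the 3.

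Other miRNAs induced by or acting on NF-kB and Toll-like receptor signalling had no common direction with age. Of a list of 20, 15 were tested, and edgeR called 0 of 15 with age in plasma and 0 of 15 in EVs. Their median slope was -0.0056 in plasma and 0.00043 in EVs, against -0.0020 and 0.0014 over all miRNAs. At an unadjusted p under 0.05, 1 of 15 had a positive slope in plasma and 2 of 15 in EVs, and 0 a negative one. Among the 3 most abundant of the list, miR-223-3p, a myeloid miRNA, had a slope of 0.079 ± 0.020 log2 units per month in EVs (adjusted p = 0.0557) and 0.060 ± 0.021 in plasma (adjusted p = 0.187), close to those of miR-146a-5p. miR-19b-3p had slopes of 0.0027 in EVs and -0.017 in plasma, and miR-142a-3p, a marker of blood cells, -0.016 and -0.034.

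Between fractions edgeR called 3 of the 15, against 18.3% of all 333 miRNAs. miR-142a-3p was higher in EVs by 0.77 ± 0.17 log2 units (adjusted p = 0.00158) and let-7i-5p, which represses Toll-like receptor 4, by 0.34 ± 0.11 (adjusted p = 0.0365). miR-125a-5p was lower in EVs, by -0.56 ± 0.20 (adjusted p = 0.0459). The median of the 15 was 0.08, against 0.02 over all 333 miRNAs.

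Of 5 sister arms and paralogs of the members, miR-21b and miR-21c were tested and edgeR called neither with age nor between fractions. The slope of miR-21c was 0.049 ± 0.022 log2 units per month in EVs (adjusted p = 0.381) and 0.014 ± 0.030 in plasma (adjusted p = 0.862). The passenger arms were scarcer than the members they come with: summed over libraries, miR-146a-3p had 5 plasma and 6 EV counts, miR-146b-3p had 2 and 2, and miR-155-3p had 4 and 1. All 5 plasma counts of miR-146a-3p were in 1 library.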

How the data were processed

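The authors deposited estimated counts per small RNA, not normalized, for 14 EV and 14 plasma libraries, and a second table with these values as normalized signal (RPM), that is, counts over a library-wide divisor. This divisor is not explained in the sources used here, and RPM of all RNAs sum to between 930340 and 3809005. The submitters' processing notes name the build mm10 and R 4.0.4. For the aligner and for reads with several matches, nothing is stated in the sources used here.

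Libraries were grouped by age, fraction and mouse from the labels. The members, the lists of other inflammation miRNAs, paralogs and cell markers, and the tests were chosen with earlier results of these data known. Estimated counts were rounded (46 rows of the table were not whole, none of them a member) and miRNAs with at least 1 RPM in at least 2 libraries of a fraction were tested with edgeR 4.0.16 in R 4.3.3 with limma 3.58.1 (TMM, glmQLFit and glmQLFTest), adjusting p over all miRNAs by Benjamini-Hochberg with a threshold of 0.05. Age in months was the tested term within a fraction. Over all 28 libraries the fraction, with age as covariate, and their interaction were tested. DESeq2 1.42.0 was the other tool. Correlations had two-sided permutation tests of 100000 resamples. Other steps used matplotlib 3.10.9, scipy 1.17.1, pandas 2.3.3 and numpy 2.4.6 in Python 3.11.15.

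All 5 members were named, of the lists those called by edgeR and the 3 highest in mean RPM, and the 3 miRNAs most like each tested member, besides the other members. Comparisons between single ages were chosen after the values were seen. Per the labels, the EV and the plasma library of a mouse are from the same animal, which pairs them, except 2-month replicates 2 and 3, which were matched by replicate number. The deviations of both from their age means correlated within a mouse by -0.027 to 0.410 over 278 miRNAs. The closest replicates differed by more than sampling noise (chi-square 3.82 per degree of freedom). Tested on simulated data with 200 changed miRNAs, edgeR recovered 89.5% for the trend in plasma (304 miRNAs, a slope of 0.2), 97.5% in EVs (307, 0.2), 99% between fractions (333, a difference of 2) and 77.5% for the interaction (333, 0.2). All of these sizes are larger than those fitted for the members, whose steepest slope was 0.099. The recovery therefore does not describe effects of the members' size. Alternatives were other normalizations, tools, filters, codings of age and measures of correlation, the mouse as a block, and leaving out mice, ages or libraries. No column of the tables belonged to other samples.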

Additional observations from a re-analysis of the deposited data

Results flagged for a closer look

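1 value stood out between ages. miR-21a-3p was higher in EVs than in plasma in both 12-month mice, with a median difference of 0.156 RPM, where the plasma libraries had 0 counts, and lower in EVs in both 18-month mice, with a median difference of -0.234 RPM. It was flagged because every mouse of each age moved the opposite way. The difference between the ages was not tested, and it rests on 1 to 3 counts a library. No library of the 6-month groups, the only ones with 4 mice, stood apart by Dixon's test in 10 tests of the members' RPM, of which chance flags about 1 in 20. The highest was miR-21a-5p in EVs, with a quotient of 0.823 against a critical value of 0.829, set by 6-month replicate 4 at 575 RPM.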

How the results depend on the processing

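The number of tested members with an age trend in EVs was 0, and 1 (miR-146a-5p) with DESeq2 and 1 with no filter (adjusted p = 0.0344, with 4 of 1557 miRNAs called up and 3 down), and leaving out 1 mouse in turn gave 0 to 2. In plasma it was 0 under all alternatives, as were the numbers that differed between fractions or in the interaction. The number of members with a correlation over 0.5 in plasma was 0, and 2 by Pearson's r, 2 with TMM CPM, 1 with scaling to miRNA counts, 2 with log2(RPM + 1) and 1 with log2(RPM + 0.1). In EVs it was 1, and 3 under each of these 5 measures, 0 without the 18-month mice, and 0 to 2 without 1 mouse in turn. The cause of these differences was not tested. The share of all miRNAs over 0.5 is given only for rho of RPM (10.7% in EVs, 2.96% in plasma) and for Pearson's r of RPM (20.2% and 10.5%). The counts of members under the other measures therefore have no background here. With the mouse as a replicate block the difference between fractions was 0.11 for miR-146a-5p (adjusted p = 0.343), 0.06 for miR-146b-5p (adjusted p = 0.794) and -0.13 for miR-21a-5p (adjusted p = 0.243) by edgeR, so the block changed no call of a member.

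The difference between fractions of miR-21a-5p was 0.11 with RPM scaling and 0.032 with no filter, and that of miR-146b-5p was -0.016 with at least 5 RPM and lay between -0.024 and 0.093 without 1 mouse in turn. The interaction of miR-21a-5p was -0.021 with log2 of age, -0.0011 without libraries under 2000000 counts, -0.0030 with the replicate block and -0.017 to 0.015 without 1 mouse in turn. In plasma the slope of miR-146b-5p was -0.019 without 18-month replicate 2 and 0.065 without 18-month replicate 1, the range over mice left out, and its rho was -0.018 with TMM CPM, -0.051 without the 18-month mice and -0.082 to 0.262 without 1 mouse in turn. Depth limits miR-155-5p and miR-21a-3p, for which a count of 0 over a fraction would be a limit (3 counts) of 0.0352 RPM for plasma and 0.0252 RPM for EVs.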
